A study of Homo sapiens with 21 samples.

Results

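Acetylated lysine 27 of histone H3 (H3K27ac) marks active promoters and enhancers, and in CAMA1 cells it covered far more sites than FGFR1 did. CAMA1 is an oestrogen receptor-positive, FGFR1-amplified breast cancer cell line. Chromatin immunoprecipitation with sequencing (ChIP-seq) of untransfected cells gave 2 peak lists for FGFR1 and 2 for H3K27ac. Overlapping peaks of the 2 lists of a target were merged, and a merged interval with support from each list is called reproducible (chromosomes 1 to 22 and X). By this rule there were 93699 H3K27ac regions and 4736 FGFR1 regions, and the comparison below is between the 4582 H3K27ac regions that overlapped an FGFR1 region by at least 1 bp and the 89117 that did not. They are part of 250332 reproducible regions over all 7 groups of the series. All cells were passaged fewer than 10 times and were without estradiol for 48 h before collection, so no group shows estradiol-treated cells. FGFR1 was also profiled in cells collected 72 h after transfection, either with the non-targeting control siNT or with siFOXA1, which is directed at FOXA1. H3K4me3, the serine 5-phosphorylated form of RNA polymerase II (Pol II S5P) and FOXA1 were profiled in untransfected cells. All lists come from this single line, and nothing in the sources says whether the 2 lists of a group came from separate cultures.

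FGFR1 is a cell-surface receptor tyrosine kinase for fibroblast growth factors, and it signals through RAS, RAF, MEK and ERK. Full-length FGFR1 has also been found in nuclei, and the study asked where on chromatin it lies. H3K27ac is written by CREBBP and EP300 and is read by bromodomain proteins. Short H3K27ac regions at gene starts usually are promoters, while wide stretches away from starts hold clustered enhancers, which in luminal breast cells are commonly bound by the pioneer factor FOXA1.

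The lists differed in length, and this bears on every share below. FGFR1 list 1 held 5341 peaks and list 2 held 13135, and 93.2% of list 1 but 36.3% of list 2 overlapped a peak of the other. H3K27ac lists held 154358 and 145991 peaks, with 72.3% and 80.4% overlapping. Fold enrichment in the lists was read as the authors' pileup over 1 background per list. The background was inferred here, as the value at which the deposited p-values best matched a Poisson count. It came to 3.40 and 3.50 fragments for FGFR1 and 3.18 and 3.13 for H3K27ac, and this inferred background is the measure of depth here. No correction for copy number was visible in it. Strength is the percentile of a region's highest fold enrichment within its own list, averaged over both lists. As a check of the label, all 11 luminal markers, among them ESR1, GATA3, KRT8 and EPCAM, had H3K27ac at a gene end, while KRT5, KRT14, VIM, PTPRC, CD3E and ALB had none. SNAI2, TP63, ZEB1, SPI1, APOA1, RBFOX3 and SYP, which mark other cell types, did have H3K27ac.

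Promoter sequence is shown first because most regions with FGFR1 lay at promoters. The 6 windows below are RefSeq promoters (GRCh38.p14, 250 bases before to 50 after the start, 5′ to 3′). They belong to the genes that name the strongest gene-end regions, where the region held such a window of that gene. The first 3 are from regions with FGFR1 and the last 3 from regions with no FGFR1 peak in either list. Capitals mark each match, on either strand, of the 11 searched motifs. ZBTB7B encodes a zinc-finger transcription factor, KDM3B a histone H3 lysine 9 demethylase, DHX15 an RNA helicase of the splicing machinery, ZNF689 a zinc-finger protein and BRPF1 a scaffold of the MOZ and MORF acetyltransferases.
ZBTB7B, chr1:155002552-155002851, plus strand: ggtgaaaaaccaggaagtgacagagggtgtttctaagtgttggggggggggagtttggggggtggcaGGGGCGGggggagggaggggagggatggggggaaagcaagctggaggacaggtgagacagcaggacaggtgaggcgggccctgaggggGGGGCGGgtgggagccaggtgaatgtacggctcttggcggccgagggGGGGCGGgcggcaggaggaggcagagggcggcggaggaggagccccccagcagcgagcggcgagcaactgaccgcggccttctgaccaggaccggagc
KDM3B, chr5:138352435-138352734, plus strand: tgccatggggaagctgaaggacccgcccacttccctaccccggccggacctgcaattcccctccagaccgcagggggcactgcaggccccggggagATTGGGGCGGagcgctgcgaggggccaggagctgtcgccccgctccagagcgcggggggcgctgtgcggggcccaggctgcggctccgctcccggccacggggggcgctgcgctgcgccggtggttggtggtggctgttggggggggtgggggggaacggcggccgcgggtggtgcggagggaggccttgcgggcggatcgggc
LOC124900276, chr9:136728135-136728434, minus strand: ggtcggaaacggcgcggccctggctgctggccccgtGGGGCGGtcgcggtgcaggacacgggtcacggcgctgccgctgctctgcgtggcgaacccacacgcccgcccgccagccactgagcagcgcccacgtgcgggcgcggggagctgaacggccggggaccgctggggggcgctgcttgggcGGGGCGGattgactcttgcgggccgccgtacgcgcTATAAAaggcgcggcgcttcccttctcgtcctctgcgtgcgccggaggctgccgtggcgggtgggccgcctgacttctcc
DHX15, chr4:24584505-24584804, minus strand: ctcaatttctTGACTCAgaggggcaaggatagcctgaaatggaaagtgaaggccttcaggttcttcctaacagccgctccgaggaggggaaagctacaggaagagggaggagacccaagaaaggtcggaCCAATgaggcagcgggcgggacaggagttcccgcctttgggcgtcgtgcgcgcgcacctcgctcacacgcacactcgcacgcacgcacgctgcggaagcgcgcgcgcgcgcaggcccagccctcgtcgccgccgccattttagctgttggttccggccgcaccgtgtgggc
ZNF689, chr16:30609779-30610078, minus strand: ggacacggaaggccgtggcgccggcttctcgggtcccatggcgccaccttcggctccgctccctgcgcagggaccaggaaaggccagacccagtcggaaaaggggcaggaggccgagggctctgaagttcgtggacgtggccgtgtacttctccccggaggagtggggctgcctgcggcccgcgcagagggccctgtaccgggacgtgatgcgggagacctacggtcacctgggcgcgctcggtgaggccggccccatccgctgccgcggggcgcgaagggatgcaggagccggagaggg
BRPF1, chr3:9731485-9731784, plus strand: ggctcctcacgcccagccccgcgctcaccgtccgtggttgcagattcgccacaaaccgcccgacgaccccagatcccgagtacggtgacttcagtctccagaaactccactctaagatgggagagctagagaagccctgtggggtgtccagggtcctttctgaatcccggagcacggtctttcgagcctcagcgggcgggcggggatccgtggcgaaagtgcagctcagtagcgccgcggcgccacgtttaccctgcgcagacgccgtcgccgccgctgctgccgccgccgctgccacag

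The 3 promoters with FGFR1 held 3, 1 and 2 copies of the GC box, the GGGGCGG element bound by SP and KLF factors, and those of DHX15, ZNF689 and BRPF1 held 0. CpG dinucleotides numbered 16, 30 and 43 in the windows of ZBTB7B, KDM3B and LOC124900276, and 31, 32 and 33 in those of DHX15, ZNF689 and BRPF1, so these pairs did not separate by CpG. At KDM3B, FGFR1 summits of lists 1 and 2 lay 86 and 85 bp from the start, and at LOC124900276 57 and 44 bp. At ZBTB7B the nearest summits lay 42 and 598 bp from the start, so that of list 2 was outside the window. At DHX15 the nearest FGFR1 summits lay 649519 and 111407 bp away.

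Over all RefSeq windows of protein-coding genes the same contrast was a matter of shares. Windows were given for 15811 of 19970 protein-coding genes, with 22131 windows in all. Of 13993 windows with H3K27ac, 3745 (26.8%) held an FGFR1 region, and 6121 lay in H3K27ac with no FGFR1 peak in the window. The remaining windows with H3K27ac are in neither set. A peak may still lie nearby: FGFR1 summits of lists 1 and 2 were within 2 kb of 454 and 1217 of those 6121 starts. The median GC content was 70.0% in windows with both and 62.3% in windows with H3K27ac and no FGFR1 peak, and the median number of CpG was 32 against 21. The GC box was found in 62.9% of the former (95% Wilson interval 61.3 to 64.4) and 41.0% of the latter (39.8 to 42.3), beside 39.6% of all windows. These 2 sets also differed in H3K27ac, with median strengths at percentile 98.2 and 91.4.

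Among windows in the uppermost quartile of H3K27ac strength, where the medians were 99.1 and 98.8, the contrast was wider. The 2104 windows with FGFR1 had a median of 32 CpG and the 503 without an FGFR1 peak in the window a median of 13. The GC box was in 60.1% (58.0 to 62.2) against 25.8% (22.2 to 29.8). The ETS core CCGGAAG was in 20.6% (18.95 to 22.4) against 6.36% (4.54 to 8.84), beside 12.8% of all windows. The palindrome CTCGCGAG of ZBTB33 was in 3.52% against 0.398%, and 1.38% of all windows. The YY1 core AAGATGGCG was in 4.75% against 1.59%, and 2.42% of all windows.

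The opposite order held for the AP-1 site TGANTCA, in 2.80% (2.18 to 3.60) of strong windows with FGFR1 and 7.36% (5.38 to 9.98) of those without, beside 6.15% of all windows. The forkhead core TGTTTAC was in 1.33% (0.922 to 1.92) against 3.18% (1.97 to 5.10), beside 2.85% of all windows. The CCAAT box was in 32.7% and 31.4%, within each other's intervals. The TATA box TATAAA was in 5.18% against 8.35% (4.31 to 6.21 against 6.24 to 11.1). The NRF1 palindrome CGCATGCG was in 4.66% against 2.39%, the cyclic AMP response element TGACGTCA in 3.09% against 1.39%, and the oestrogen response element was found in 8 windows of all 22131. No motif in the list contains another, matches can overlap on the sequence, and a match is a string of letters and no evidence of binding. The strong windows also differed in base composition, with a median GC content of 69.7% with FGFR1 and 58.0% without. Pol II S5P was present at 97.6% of the strong windows with FGFR1 and 32.4% of those without. The parts of base composition and of Pol II S5P in the motif contrasts were not tested.

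FGFR1 sat on the strongest H3K27ac. Regions with FGFR1 had a median strength at percentile 97.7 (quartiles 95.3 and 99.1) and those without at 62.7 (41.9 and 81.4). In all, 4.89% of H3K27ac regions had FGFR1 (95% Wilson interval 4.75 to 5.03, counting error only). That share was 0.134% in the weakest decile of H3K27ac, 0.457% in the sixth, 5.10% in the ninth and 40.3% in the strongest. In the strongest 2% it was 78.1% (76.2 to 80.0). Seen from FGFR1, 4551 of its 4736 regions (96.1%, 95.5 to 96.6) overlapped reproducible H3K27ac.

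The length of the FGFR1 lists set the level of these shares. With each FGFR1 list used alone, 4.82% and 11% of H3K27ac regions had a peak (7.91 ± 4.37, SD, n = 2). The difference of the median strengths was 35.1 and 35.7 percentiles (35.4 ± 0.453, n = 2). A further 5694 H3K27ac regions had a peak of list 2 only. These regions were intermediate in most measures, with a median strength at percentile 94.7, 70.2% at gene ends and 59.5% with Pol II S5P.

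**Figure D1:**
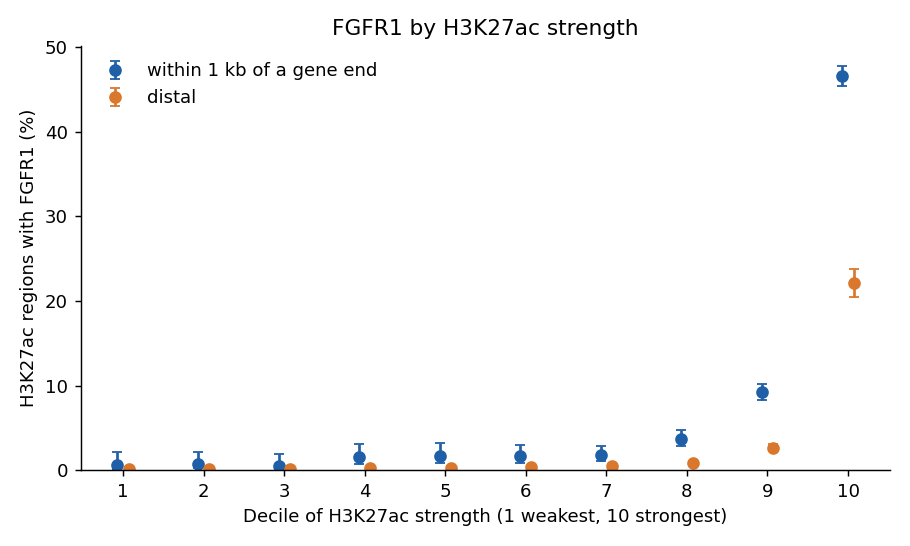
Share of H3K27ac regions with FGFR1 (vertical axis, percent) by decile of H3K27ac strength (horizontal axis), for regions within 1 kb of a protein-coding gene end and for distal regions; bars are 95% Wilson intervals. The share reached 46.6% at gene ends and 22.1% at distal regions in the strongest decile, and stayed at or below 9.19% in every weaker one.

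Position mattered beside strength. Of 15516 H3K27ac regions less than 1 kb from where a protein-coding gene starts or ends, 3670 (23.7%, 22.99 to 24.3) had FGFR1. The share fell to 2.22% at 1 to 5 kb, 1.74% at 5 to 20 kb, 0.868% at 20 to 100 kb and 0.422% beyond 100 kb. Gene ends held 80.1% of the regions with FGFR1. Where RefSeq windows gave the strand, the 12064 regions at an annotated start had FGFR1 in 26.6% of cases (25.8 to 27.4), and the 2244 at the 3′ end only in 4.28% (3.52 to 5.20). The latter were also weaker, with a median strength at percentile 70.8 against 93.9.

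Many distal regions with FGFR1 held a start of another kind. Of the 912 distal regions with FGFR1, 255 (28.0%) held a further annotated start of a protein-coding gene and 86 (9.43%) a start of a non-coding gene. The share with FGFR1 was 18.0% and 6.62% in those classes, against 0.757% of the 75468 distal regions with no annotated start. In the strongest decile it was 40.9% (36.8 to 45.0), 25.5% (20.5 to 31.2) and 15.1% (13.5 to 16.99). The class with no annotated start may hold missed starts. No promoter windows were given for chromosome 8, which had 4742 distal regions, 58 of them with FGFR1. Among promoter windows with H3K27ac, FGFR1 was at 18.8% of 3719 long non-coding RNA promoters (17.6 to 20.1), below the 26.8% of protein-coding promoters.

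Width, strength and position entered a logistic regression together. For 10 more percentiles of strength the odds of FGFR1 were multiplied by 8.54 (95% interval 6.56 to 11.1). A gene end multiplied them by 2.83 (2.50 to 3.20), against 26.3 (23.5 to 29.3) when fitted alone. With each FGFR1 list used alone these factors were 7.72 and 5.24 for strength and 2.77 and 4.70 for a gene end. With Pol II S5P, H3K4me3 and FOXA1 also in the fit they fell to 2.38 (1.90 to 2.97) and 1.69 (1.49 to 1.91). The strength factor moved with the overlap rule too, to 45.8 (28.2 to 74.4) when 50% of the FGFR1 region had to lie inside, 16.4 with intersected peaks and 18.5 with regions stitched. The intervals use a covariance clustered on 1-Mb windows and treat regions, not cultures, as the units, so no p is given.

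Width changed sign between the separate and the joint fit. Regions with FGFR1 were 3048 bp wide at the median (quartiles 2076 and 4893) and those without 884 bp (528 and 1832), a ratio of 3.45, or 6.12 and 6.09 with H3K27ac list 2 or list 1 alone. Fitted alone, a doubling of width multiplied the odds of FGFR1 by 2.25 (2.19 to 2.31). With strength and position in the fit the factor was 0.865 (0.821 to 0.911), and with Pol II S5P, H3K4me3 and FOXA1 also in the fit it was 0.963 (0.910 to 1.02), an interval that includes no change. Each FGFR1 list alone gave 0.921 and 0.802 (0.862 ± 0.0846, n = 2).

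The joint value covered different patterns at gene ends and elsewhere. At gene ends a doubling of width multiplied the odds by 1.04 (0.984 to 1.10). At distal regions it multiplied them by 0.538 (0.489 to 0.593). The interaction of width with gene end, fitted after these values were seen, was a ratio of 1.94 (1.74 to 2.16), and 1.79 and 1.29 with each FGFR1 list alone.

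In the strongest decile, distal regions without FGFR1 had a median width of 6452 bp and those with FGFR1 3220 bp, while at gene ends the order was 2713 bp without and 3430 bp with. The distal share with FGFR1 was 37.4% (33.7 to 41.4) among regions of 2 to 4 kb and 9.99% (8.10 to 12.3) among those of 8 kb and more. At gene ends it was 45.1% and 56.1% in the same classes. The distal order of widths was seen in regions without Pol II S5P, the initiating form of RNA polymerase II. Their medians were 2867 bp for the 73 with FGFR1 and 7752 bp for the 1323 without. Where Pol II S5P was present the medians were 3250 bp with FGFR1 and 2902 bp without. The pooled sets were of unlike make-up, with Pol II S5P at 86.2% of distal regions with FGFR1 and 29.1% of those without.

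**Figure D2:**
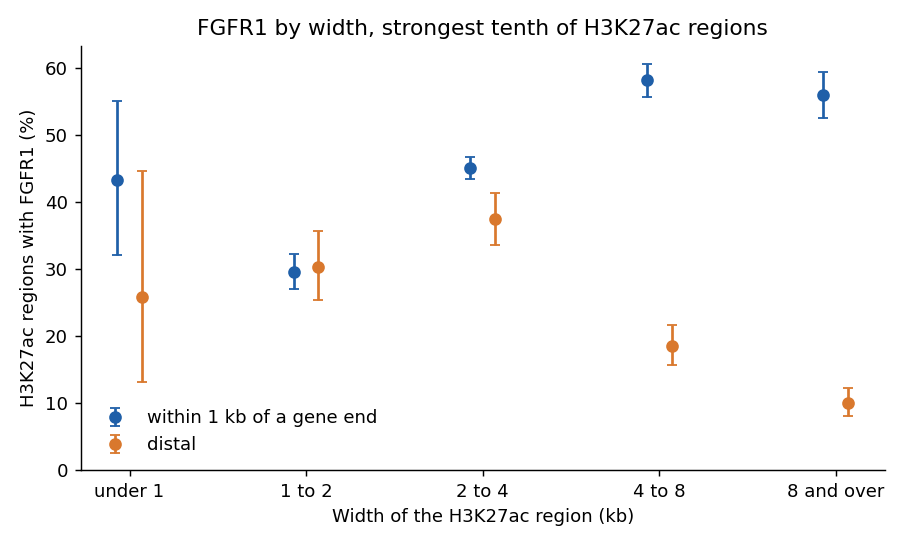
Share of H3K27ac regions with FGFR1 (percent) by width of the H3K27ac region (kb), in the strongest decile of H3K27ac, at gene ends and at distal regions; bars are 95% Wilson intervals. Distal regions fell from 37.4% at 2 to 4 kb to 9.99% at 8 kb and over, while gene ends rose from 45.1% to 56.1%.

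Single regions did not all follow this order. The widest H3K27ac regions with FGFR1 lay near ZMAT4 (90978 bp wide, 104803 bp from the gene), BCAR3 (78977 bp wide, 2735 bp away) and at ELAPOR1 (64751 bp wide), with 1, 1 and 4 FGFR1 regions inside. The widest with no FGFR1 peak lay far from gene ends: 80530 bp wide at a distance of 929312 bp from GATA3, a luminal transcription factor gene, 71226 bp wide at 389910 bp from ANKRD7, and 49151 bp wide at 256211 bp from TRPS1. The strongest distal regions with no FGFR1 peak, near CYRIB, TRPS1, PANK3, UNC5A and SHROOM3, were 6759 to 28714 bp wide. All 5 had H3K4me3 and FOXA1, and 1, near TRPS1, had Pol II S5P. Their H3K27ac folds were 47.9 to 54.6 in list 1 and 52.5 to 57.4 in list 2.

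Among the strongest distal regions with FGFR1 were those near PROS1, KIAA2013, MGAT1 and HNRNPH1, and all 4 had Pol II S5P. The one near PROS1 (chr3:93470236-93470921, 402130 bp from the gene) stands apart: its fold was 90.3 and 91.5 in the H3K27ac lists and 91.2 and 88.6 in the FGFR1 lists, at or near the highest of each list, and it also had peaks of H3K4me3, Pol II S5P, FOXA1 and siNT FGFR1. Of all regions with FGFR1, 94.3% held 1 FGFR1 region.

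FGFR1 occupied a narrow part of each region. It covered a median of 526 bp, or 17.7% of the H3K27ac region's width. Its summits lay away from the H3K27ac maximum: the median distance to the nearest H3K27ac summit was 254 bp and 255 bp for lists 1 and 2 against H3K27ac list 1, and 11.1% and 10.6% of summits were within 100 bp. For H3K4me3 the medians were 124 and 116 bp, for Pol II S5P 228 and 208 bp and for FOXA1 419 and 420 bp.

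At 3745 protein-coding starts with both, FGFR1 summits had a median position of -42 and -41 bp relative to the start in lists 1 and 2 (negative is upstream), with quartiles from -140.0 to 41.0 bp in list 1. H3K27ac summits had a median of 170.0 bp downstream in both lists, H3K4me3 215 and 214 bp downstream, and Pol II S5P 34 and 32 bp downstream. FOXA1 summits, present within 2 kb at 2400 and 2468 of these starts, had medians of -117 and -115 bp. These starts were chosen by an FGFR1 region in the promoter window, which holds its summits near the start, while the other targets were not chosen in this way except for overlap with H3K27ac. The FGFR1 positions are therefore a description. H3K27ac list 1 had 57 summits in the 100 bp before the start, 262 at 200 to 300 bp before it and 1103 at 100 to 200 bp after it.

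**Figure D3:**
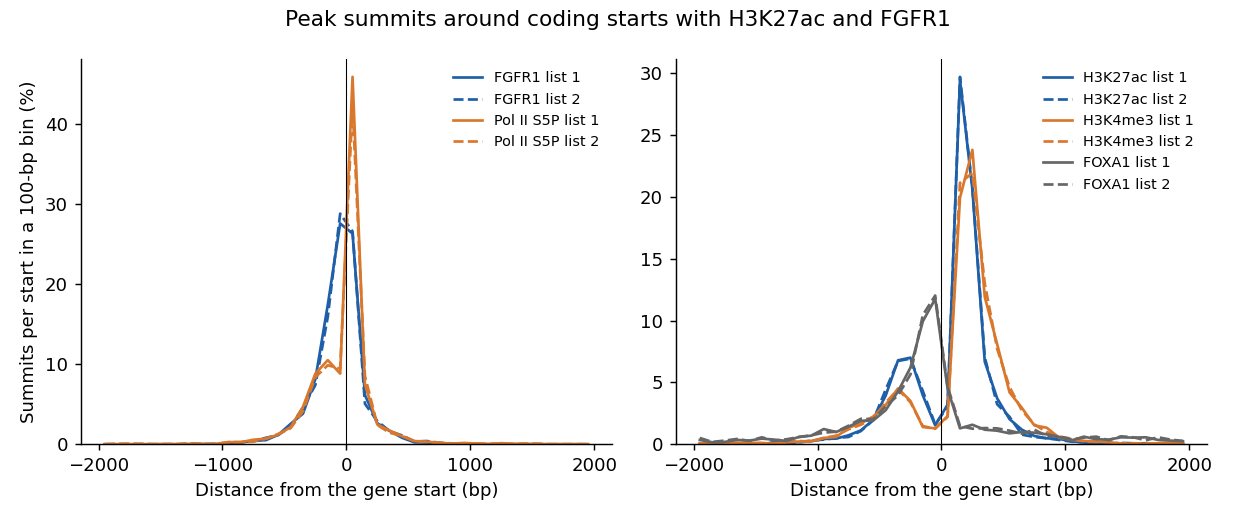
Peak summits per start (percent of the 3745 protein-coding starts with H3K27ac and FGFR1, in bins of 100 bp) against distance from the start in bp, negative upstream; lines are the 2 lists of each target, for FGFR1 and Pol II S5P on the left and H3K27ac, H3K4me3 and FOXA1 on the right. FGFR1 summits, which the choice of starts holds near it, peak at the start, and H3K27ac and H3K4me3 summits show a local dip there between 2 flanks.

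Other marks, which played no part in choosing the regions, also differed. H3K4me3, a promoter mark, was present at 97.6% (97.2 to 98.0) of the H3K27ac regions with FGFR1 and 27.3% (27.05 to 27.6) of those without. Pol II S5P, which marks early transcription, was at 82.7% (81.6 to 83.8) and 5.31% (5.17 to 5.46). FOXA1 was at 61.5% (60.1 to 62.9) and 45.8% (45.5 to 46.1). In the strongest decile H3K4me3 was near saturation, at 99.95% and 99.3%, and the gap for Pol II S5P was 93.5% against 58.8%.

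Pol II S5P separated regions with and without FGFR1 within the strongest decile and within each position. At gene ends, FGFR1 was at 52.8% (51.5 to 54.1) of regions with Pol II S5P and 15.0% (13.1 to 17.2) of those without. At distal regions of that decile it was 45.6% (42.5 to 48.7) and 5.23% (4.18 to 6.53). Over all strengths, distal regions without H3K4me3, the classical enhancer make-up, almost never had FGFR1: 100 of 62259 (0.161%, 0.132 to 0.195). They were also weak in H3K27ac, with a median strength at percentile 52.6 for those without FGFR1. Distal regions of the fourth strength decile, at a like median of 52.3 for those without FGFR1, had FGFR1 in 0.238% of cases (0.156 to 0.363) whatever their marks.

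FOXA1 did not follow FGFR1 everywhere. At gene ends of the strongest decile, FOXA1 was at 64.8% of regions with FGFR1 and 56.0% of those without. At distal regions of that decile the order was the reverse, 66.5% with and 81.2% without, a difference of -14.7 percentage points. Each FGFR1 list alone gave -14.1 and -22.7 (-18.4 ± 6.04, n = 2), and the order was the same without chromosomes 1, 8 and 11 (64.0% and 79.9%). Distal regions with FGFR1 also carried Pol II S5P far more often. Among distal regions of that decile with Pol II S5P, FOXA1 was at 66.4% with FGFR1 and 61.0% without, and among those lacking Pol II S5P at 67.1% of 73 and 89.5% of 1323. These splits by FOXA1 were chosen after its values were seen.

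FGFR1 lists from transfected cells, made from other libraries, had a peak more often at H3K27ac regions with untransfected FGFR1 than at the others, though most of the former had none. The siNT lists had a peak at 36.1% and 38.3% of H3K27ac regions with untransfected FGFR1, and at 1.18% and 1.29% of those without. The siFOXA1 lists had one at 22.02% and 19.1%, and at 0.679% and 0.755%. Within distal regions with FGFR1 siNT list 1 had a peak at 456 of 912 and list 2 at 447, and at gene ends the shares were 32.6% and 35.6%. Of the peaks of these lists, 53.4% and 51.8% for siNT and 44.7% and 38.4% for siFOXA1 lay in an H3K27ac region, against 92.5% and 90.98% for the untransfected lists. Lists of the transfected cells are of different length, 6007 and 6594 for siNT and 4332 and 5056 for siFOXA1, and no H3K27ac list of those cells was used here.

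Within regions that had both, the height of the FGFR1 peak followed that of H3K27ac only weakly. Across 3542 and 3664 gene-end regions Spearman's rho between the folds was 0.25 to 0.29 over the 4 pairs of lists, and across 863 and 909 distal regions it was -0.06 to -0.01. Regions share libraries and a background, so this is a description and has no p.

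Few FGFR1 regions lay outside H3K27ac. Of 4736, 185 had no reproducible H3K27ac and 157 no H3K27ac peak of either list. The 185 were narrower, at a median of 350.0 bp against 572 bp, and 4.87% lay at gene ends, against 75.4% of the others. Their FGFR1 strength had a median at percentile 68.6, near the 67.8 of the others, and 77.3% of them also had a reproducible siNT FGFR1 region, against 25.3%. Other targets were found at many of them too. Pol II S5P was at 51.4%, H3K4me3 at 47.0% and FOXA1 at 29.7% of the 185, against 84.4%, 97.3% and 44.6% of the others. The strongest 5 lay near COXFA4L2, LOC124903767, NPAS4, KCNJ18 and ASB10, with FGFR1 folds of 12.5 to 21.2 in list 1 and 15.3 to 28.2 in list 2.

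Gene class was read from the 13480 of 19970 protein-coding genes with H3K27ac within 1 kb of an end, of which 3972 (29.5%, 28.7 to 30.2) had FGFR1 at the same end. That share rose with H3K27ac over quintiles of genes, from 1.45% through 8.12%, 20.99% and 45.1% to 71.7%. The 23 lists below are therefore set beside 29.5% and beside the count that the rates of all genes in the same quintiles would give. Neighbouring genes that share an end share a region, and the lists carry no test. These counts take only FGFR1 regions found in both lists, and a further 4250 of the 13480 genes had a peak of a single FGFR1 list. A gene without an FGFR1 peak lacks one within 1 kb of its ends, while the wider H3K27ac region around it may still hold one.

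The lists of protein synthesis and folding differed among themselves. Among cytosolic ribosomal protein genes FGFR1 was at 51 of 84 (60.7%, 50.02 to 70.5), where their strength would give 36.7. RPS3 had FGFR1 folds of 12.5 and 21.3, RPL10A 12.97 and 19.3. Mitochondrial ribosomal protein genes, of like strength (medians at percentile 96.8 and 97.2), had it at 26 of 75, where strength would give 29.7. Translation factors had it at 14 of 28 (10.8 by strength), proteasome subunits at 10 of 36 (12.5), and the SR and hnRNP splicing proteins at 16 of 30 (16.05). The heat-shock and unfolded protein response genes had it at 18 of 27 (15.4), with HSPA1B at folds of 11.8 and 18.9 and HSP90AB1 at 11.2 and 15.3. DNAJB1, an HSP40 co-chaperone with H3K27ac folds of 45.3 and 48.4, had no FGFR1 peak at that end.

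Immediate early genes, which respond to growth factors within minutes, had FGFR1 at 16 of 26, where strength would give 13.1. JUNB, an AP-1 subunit, had FGFR1 folds of 18.9 and 34.4, JUND 16.4 and 17.3, and DUSP1, an ERK phosphatase, 12.5 and 23.8. FOSB and EGR2 had H3K27ac and no FGFR1 peak there. The feedback genes of the ERK pathway had it at 6 of 16 (5 by strength), and the FGF receptor and RAS to ERK genes at 13 of 30 (10.7), among them SHC1 (folds 10.0 and 15.1), FGFR4 (10.0 and 13.3) and PTPN11 (10.5 and 12.2).

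Luminal and oestrogen response genes had FGFR1 at 15 of 37, where strength would give 15.7, so their share was that of other genes of like H3K27ac. CCND1, which encodes cyclin D1, had FGFR1 folds of 21.6 and 27.8, and KDM4B, a demethylase and oestrogen receptor coactivator, 16.6 and 24.9. RARA, the retinoic acid receptor gene, had H3K27ac folds of 51.0 and 51.3 and no FGFR1 peak at that end. Epithelial junction genes had it at 13 of 26 (12.9 by strength), with CTNNA1 at 12.5 and 20.9. Of 13 basal and mesenchymal genes with H3K27ac it was at 0, which allows up to 22.8% by the Wilson interval, and strength would give 1.09.

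Genes of histone lysine methylation had FGFR1 at 18 of 28 (64.3%, 45.8 to 79.3), where strength would give 13.6. KDM3B had folds of 33.7 and 39.1. KMT2A, the MLL methyltransferase gene, had 30.7 and 37.5 although its H3K27ac was modest, at percentile 94.1. NSD1 had H3K27ac folds of 66.1 and 74.5 and no FGFR1 peak within 1 kb of its ends. Acetylation genes had it at 17 of 36 (15.2 by strength), with CREBBP at 20.5 and 28.4 and BRD2 at 13.9 and 21.1, while BRPF1 had no FGFR1 peak at that end. Replication-dependent histone genes had it at 27 of 56, near the 27.6 of their strength.

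Zinc-finger genes of chromosome 19 had FGFR1 at 27 of 188 (14.4%, 10.1 to 20.1), where strength would give 48.1. A further 76 had a peak of a single FGFR1 list, which neither count includes. DNA replication and mitosis genes had FGFR1 at 5 of 39 against 8.56, Mediator subunits at 6 of 32 against 9.43, cholesterol synthesis genes at 4 of 23 against 6.76 and HOX genes at 0 of 20 against 3.43. In these lists a further 18, 13, 12 and 6 genes had a peak of a single FGFR1 list. The intervals of the replication (5.60 to 26.7%), Mediator (8.89 to 35.3%) and cholesterol lists (6.98 to 37.1%) include the shares that the counts by strength amount to, so those gaps are within counting error. The same held for lists above their count by strength, namely translation factors (32.6 to 67.4%), heat-shock (47.8 to 81.4%), immediate early (42.5 to 77.6%) and histone lysine methylation genes (45.8 to 79.3%). PMVK, a kinase of cholesterol synthesis, had H3K27ac folds of 68.5 and 69.5 and no FGFR1 peak within 1 kb of its ends. Of olfactory receptor and haematopoietic genes, 9 and 4 had H3K27ac and 0 had FGFR1, where strength would give 0.197 and 0.125. MAP2, GRIN1 and SYP, 3 of 7 neuronal or hepatic genes with H3K27ac, had FGFR1, where strength would give 0.870.

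**Figure D4:**
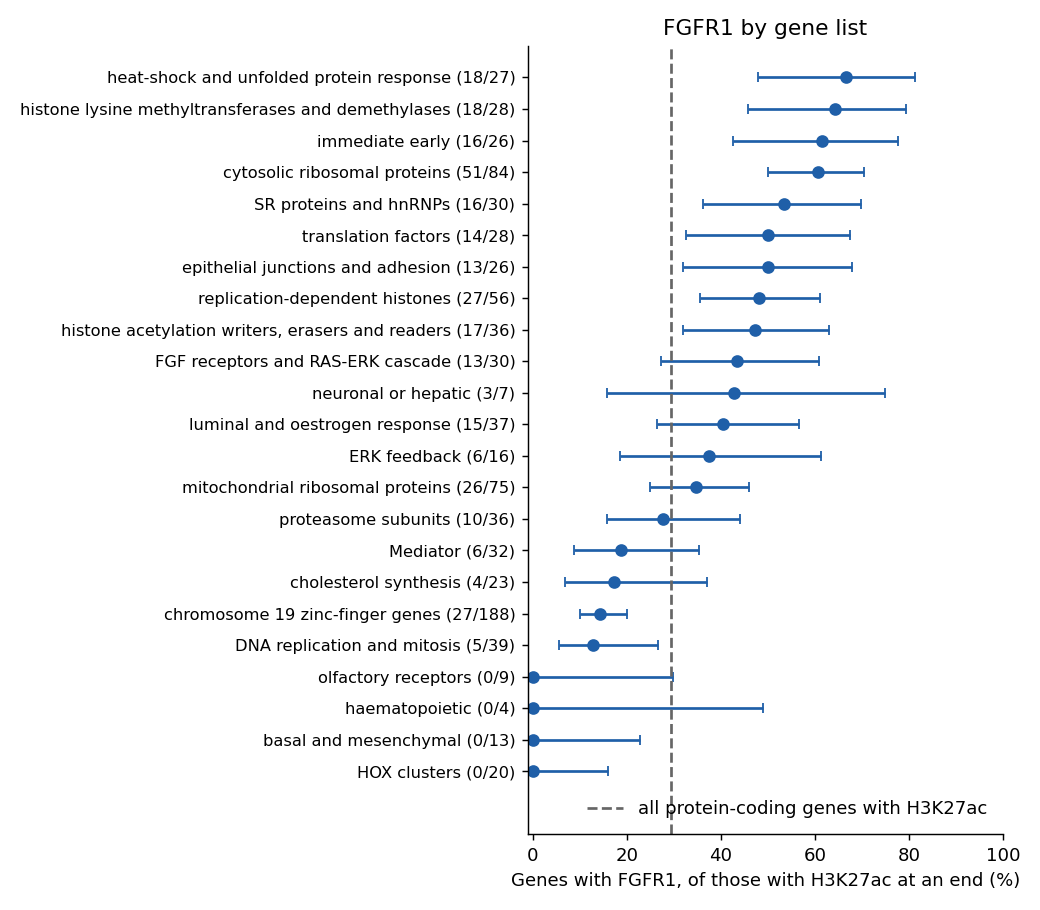
Percent of genes with FGFR1 among those with H3K27ac at an end, for the 23 gene lists (counts in brackets), with 95% Wilson intervals; the dashed line is the 29.5% of all protein-coding genes with H3K27ac. Ribosomal, heat-shock, immediate early and histone methylation lists lie to its right, and zinc-finger, replication and HOX lists to its left.

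The strongest gene ends with FGFR1, by the mean of the 4 lists' percentiles, were named by ZBTB7B, VPS28, KDM3B, TMEM167B, LOC124900276, CCND1, INKA2, CDC25C, CCDC106 and KMT5B. Their FGFR1 folds ranged from 18.7 to 37.3 in list 1 and from 21.1 to 43.5 in list 2, and all 10 had Pol II S5P and siNT FGFR1. The strongest gene-end regions with no FGFR1 peak anywhere in the H3K27ac region were at DHX15, ZNF689, BRPF1, SIDT1, PRLR, ZKSCAN1, KDM8, FCSK, STX1A and VTCN1, with H3K27ac folds of 47.9 to 54.4 in list 1. Of these, 8 had Pol II S5P and 0 had siNT FGFR1. At PRLR, the prolactin receptor gene, the H3K27ac region spanned 42256 bp. The regions without FGFR1 were weaker than most of the former, whose H3K27ac folds were 51.7 to 79.0 in list 1.

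The share also varied by chromosome. At gene ends of the strongest H3K27ac decile, FGFR1 was at 67.1% of 255 regions on chromosome 8 (61.1 to 72.5), 62.8% on chromosome 5 and 60.4% on chromosome 6. It was at 13.4% of 67 on chromosome X (7.23 to 23.6) and 13.5% of 96 on chromosome 18 (8.09 to 21.8). Regions with FGFR1 in these classes had a median strength at percentile 99.5 on chromosome 8, 95.5 on X and 96.4 on 18. Those without were at 96.3, 94.8 and 95.8. On chromosomes 5 and 6 the medians were 98.9 and 99.0 with FGFR1, and 96.96 and 95.7 without. Among regions without FGFR1, strength thus did not follow the share throughout, as chromosomes 6 and 18 were alike in it. FGFR1 list 2 alone gave 92.6% on chromosome 8, 53.7% on X and 72.9% on 18. Copy number was not measured in these files, and its part in the difference was not tested.

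**Figure D5:**
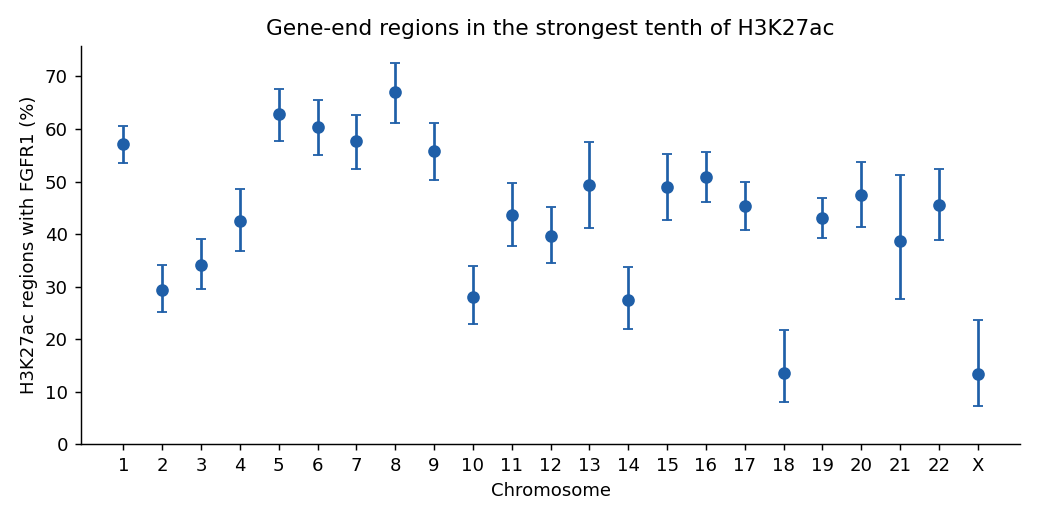
Share of H3K27ac regions with FGFR1 (percent) by chromosome, among gene-end regions in the strongest decile of H3K27ac, with 95% Wilson intervals. Chromosome 8 is highest at 67.1% and chromosomes X and 18 are lowest at 13.4% and 13.5%.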

How the data were processed

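The MACS2 peak lists of untransfected CAMA1 FGFR1 and H3K27ac (2 each), and those of the other targets and transfected cells, were used as deposited by the authors, on hg38. Bowtie2, SAMtools, Picard and MACS2 appear among the tools of the submitters' processing notes; their versions and settings are not given in the sources used here. Per the file layout and the deposited values, each row holds a summit, a fold enrichment (a ratio to background) and the -log10 of both a p-value and a q-value, and peaks were called per sample. The deposited score was not used. Peak names inside the FGFR1 lists disagree with the labels on replicate number and those of FOXA1 name FOXA2; the labels were followed. Inputs were not used here.

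Python 3.11.15, pandas 2.3.3 and statsmodels 0.14.6 were used. Gene ends, starts and promoter sequences come from RefSeq tables (GRCh38.p14), which held no promoter windows for chromosome 8. Distal means over 1 kb from both ends of every protein-coding gene. Overlap counting and the logistic fit were tested on simulated data. Genes were named by strength rules: the 10 strongest gene ends with and without FGFR1, the 5 strongest and 3 widest regions, the 5 strongest FGFR1 regions outside H3K27ac, and up to 3 with and 2 without FGFR1 per list. Some named items are not reported here. Members, gene lists and tests were chosen with earlier results of these data known. Alternatives were a stricter q-value, other overlap rules, stitching, other windows, single lists, lists of equal length, chromosomes left out and pairing by replicate number.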

Additional observations from a re-analysis of the deposited data

Results flagged for a closer look

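Peaks on the mitochondrial genome lie outside the chromosomes compared here. The highest fold enrichment there was 89.4 and 87.5 in FGFR1 lists 1 and 2, exceeded by 0.0185% and 0.00758% of all peaks of those lists. In H3K27ac lists 1 and 2 it was 24.2 and 24.7. Pol II S5P lists had 81.8 and 82.2 and siNT FGFR1 lists 125.8 and 125.0 there. Inputs were not used here, so no control level stands beside these values.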

How the results depend on the processing

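Of 181 alternative values for 13 results, 155 kept their direction and their side of the threshold or moved by less than the spread of the FGFR1 lists, 25 moved further, 1 lost its call and 0 reversed. That spread was wide, at 4.37 on a share of 4.89%, and the single-list runs that set it are among the alternatives. Odds ratios were labelled by direction and by whether the interval included 1, so the strength factor counted as kept from 2.38 to 45.8. The count of 155 is therefore no measure of stable size. The lost call was the width odds ratio, 0.963 with Pol II S5P, H3K4me3 and FOXA1 in the fit. The FGFR1 list lengths differ, and leaving out each of the 4 lists in turn put the share of H3K27ac regions with FGFR1 between 3.05% and 11%, of distal regions between 0.709% and 3.37%, of gene-end regions between 20.8% and 49.4%, and of H3K27ac gene ends between 28.96% and 60.9%. The upper bounds come from FGFR1 list 2 alone. In the same runs the share of FGFR1 regions with H3K27ac ranged from 90.98% to 96.33%, the width ratio from 3.18 to 6.12, the strength difference from 35.1 to 46.7 and the distal FOXA1 difference from -22.7 to -14.1. The share of FGFR1 regions with H3K27ac was 90.5% with 50% of the FGFR1 region inside, 80.0% for summits within 500 bp and 97.3% with lists of equal length. The width ratio was 2.30 at -log10 q of at least 5, 6.48 with intersected peaks, 3.71 with 50% inside and 2.31 with regions under 1 kb apart stitched, which also put the strength difference at 25.4. The 50% and summit rules do not touch the share counted over gene ends.

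In a replicate block, where list 1 was compared with list 1 and list 2 with list 2 before averaging, the share of FGFR1 regions with H3K27ac was 91.9%, the width ratio 5.85, the strength difference 45.8 and the distal FOXA1 difference -21.2. The numbers share no stated culture or batch. Strength in 20 bins, the added covariates, the removal of chromosomes 1, 8 and 11, the distal width fit, its interaction and the FOXA1 splits were chosen after seeing the data.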
